A study of Mus musculus with 20 samples.

Results

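The AP-1 transcription factor genes *Fos*, *Fosb*, *Fosl1*, *Fosl2*, *Jun*, *Junb* and *Jund* were followed in the abdominal aorta of mice with and without lysyl hydroxylase 1 (LH1), the collagen-modifying enzyme encoded by *Plod1*. The 7 members were chosen by gene family, with earlier results of these data known. Counts of members set against the share of all genes are thus descriptions and no independent support. The members were found by symbol through their Ensembl identifiers and make up 7 of the 43422 genes listed for each mouse. RNA was sequenced on day 14 from 20 mice, 5 in each of 4 groups: WT mice given saline, WT mice given angiotensin II (Ang II) at 1000 ng/kg/min, *Plod1*-/- mice given saline and *Plod1*-/- mice given Ang II. Saline and Ang II were delivered by osmotic pumps under the skin. The labels give C57BL/6 mice of 6 months for all groups. The study's methods name the C57Bl/6NCrl substrain and a younger age at pump implantation than the labels imply, and they describe male littermates from crosses of heterozygous mice, so that *Plod1*-/- mice lack the gene in all tissues. Values are FPKM, sequenced fragments scaled to transcript length and to library size, so that levels of different genes can be compared per length.

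AP-1 is a dimer of basic leucine zipper (bZIP) proteins, in which a Fos protein typically pairs with a Jun protein while Jun proteins can also pair with each other. *Fos* and *Fosb* are immediate early genes, switched on within minutes of a stimulus, and their mRNA is then rapidly destroyed. *Fosl1* and *Fosl2* encode Fra-1 and Fra-2, which appear later and persist longer, and in vessels AP-1 is known for responses to Ang II, stretch and injury.

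The members lie on 6 chromosomes of GRCm38 and all are protein-coding genes. *Fos* (ENSMUSG00000021250) lies at chr12:85473890-85477273, *Fosb* (ENSMUSG00000003545) at chr7:19302696-19310051, *Fosl1* (ENSMUSG00000024912) at chr19:5447547-5455946 and *Fosl2* (ENSMUSG00000029135) at chr5:32135801-32157842. *Jun* (ENSMUSG00000052684) lies at chr4:95049034-95052222, *Junb* (ENSMUSG00000052837) at chr8:84974484-84978718 and *Jund* (ENSMUSG00000071076) at chr8:70698949-70700616. RefSeq promoter windows of GRCm38.p6, 250 bases before to 50 after the start, were found for 6 of the 7 members. The 120 bases before the start of *Fos* (chr12:85473770-85473889, + strand), *Fosb* (chr7:19310046-19310165, − strand), *Jun* (chr4:95052223-95052342, − strand) and *Junb* (chr8:84978749-84978868, − strand) are shown, because these members moved most alike among the mice. Capitals mark TGACG, the first bases of the cyclic AMP response element (CRE), and in *Jun* the letters TGACATCA.
Fos: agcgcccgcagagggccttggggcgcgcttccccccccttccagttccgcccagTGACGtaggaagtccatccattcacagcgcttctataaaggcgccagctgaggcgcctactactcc
Fosb: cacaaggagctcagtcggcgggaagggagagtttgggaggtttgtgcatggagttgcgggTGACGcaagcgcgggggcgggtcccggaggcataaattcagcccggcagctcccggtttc
Jun: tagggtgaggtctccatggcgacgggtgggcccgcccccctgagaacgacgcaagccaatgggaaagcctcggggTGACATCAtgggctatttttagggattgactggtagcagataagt
Junb: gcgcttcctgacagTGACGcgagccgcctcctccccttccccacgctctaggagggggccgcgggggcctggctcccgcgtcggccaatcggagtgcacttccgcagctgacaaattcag
None of the 6 windows holds the full CRE TGACGTCA, the AP-1 motif TGANTCA or a CArG box, the serum response factor motif, on either strand. Bases beyond the windows were not searched, so sites farther from the start are not covered. Of 32851 mouse promoter windows of this length, 1.79% hold the CRE, 7.81% the AP-1 motif and 1.63% a CArG box. Both runs in capitals were searched for after these windows had been read. TGACG starts 129 and 66 bases before the start of *Fos*, 60 bases before that of *Fosb* and 106 bases before that of *Junb*, and it is in 20.8% of all windows. TGACATCA starts 45 bases before the start of *Jun* and is in 3.62% of all windows. The windows of *Fosl2* and *Jund* hold neither run of letters.

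*Plod1*, the targeted gene, was at 22.8 FPKM or more in every WT mouse and at no more than 0.0415 FPKM in every *Plod1*-/- mouse. *Xist*, which is expressed in female cells, reached 15.1 FPKM in replicate 5 of the saline-treated and 7.93 FPKM in replicate 1 of the Ang II-treated *Plod1*-/- mice and stayed below 1 FPKM in all other libraries, although the study describes male mice. Smooth muscle markers were present in every library, with a summed FPKM of 6 genes from 13810 to 20350 in saline-treated and from 2258 to 16620 in Ang II-treated mice. The libraries differed in other tissue. The summed FPKM of 6 brown adipocyte markers ran from 549 to 4344 in Ang II-treated WT mice, from 25.8 to 385 in saline-treated WT mice, from 23.4 to 1261 in saline-treated and from 144 to 594 in Ang II-treated *Plod1*-/- mice, and none of these markers was at 0 in a whole group. Among the other lists, 5 general adipocyte markers summed to 515 to 2239 FPKM in Ang II-treated WT and to 396 to 2642 FPKM in Ang II-treated *Plod1*-/- mice. Under saline they summed to 78.7 to 303 FPKM in WT and to 107 to 853 FPKM in *Plod1*-/- mice. The 8 macrophage markers summed to 1072 to 5666 FPKM in Ang II-treated *Plod1*-/- mice and to 114.5 to 2127 elsewhere. In the same group 6 neutrophil markers summed to 156 to 711 FPKM, against 1.39 to 213 elsewhere, and 5 red cell markers to 763 to 9716 FPKM, against 60.0 to 1523 elsewhere. The skeletal muscle gene *Acta1* was at 141, 77.2 and 111 FPKM in Ang II-treated WT replicates 2, 3 and 5 and at no more than 8.31 elsewhere. In whole aorta, fewer cells of a type and less RNA per cell cannot be told apart.

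*Fos* and *Fosb* were nearly lost from the aortas of Ang II-treated WT mice and high in those of Ang II-treated *Plod1*-/- mice, where their range overlapped that of saline-treated WT mice. *Fos*, the founding member of the family, was at 229.9, 235, 206, 358 and 87.5 FPKM in saline-treated WT replicates 1 to 5. Under Ang II the WT values were 8.94, 5.29, 4.64, 6.92 and 2.41 FPKM. The highest WT value under Ang II was thus below the lowest under saline, and the group means differed 39.6-fold. In saline-treated *Plod1*-/- mice *Fos* was at 17.9, 6.40, 33.6, 226 and 123 FPKM, so that replicates 4 and 5 were within the WT saline range and the other mice below it. In Ang II-treated *Plod1*-/- mice it was at 99.5, 378, 401, 220.4 and 195 FPKM, above every Ang II-treated WT mouse. The group mean was 45.9-fold higher in *Plod1*-/- than in WT mice under Ang II.

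*Fosb*, which encodes a close relative of Fos, followed the same order at a lower level. Its WT values were 46.6, 39.5, 23.0, 69.5 and 16.7 FPKM under saline and 0.549, 0.489, 1.10, 1.76 and 0.590 FPKM under Ang II. The *Plod1*-/- values were 2.04, 1.28, 3.88, 19.0 and 11.8 FPKM under saline and 12.4, 65.4, 68.7, 29.0 and 34.0 FPKM under Ang II. The Ang II-treated genotypes did not overlap, and the means differed 46.6-fold. Among the saline-treated *Plod1*-/- mice, replicates 4 and 5 were again the highest.

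**Figure D1:**
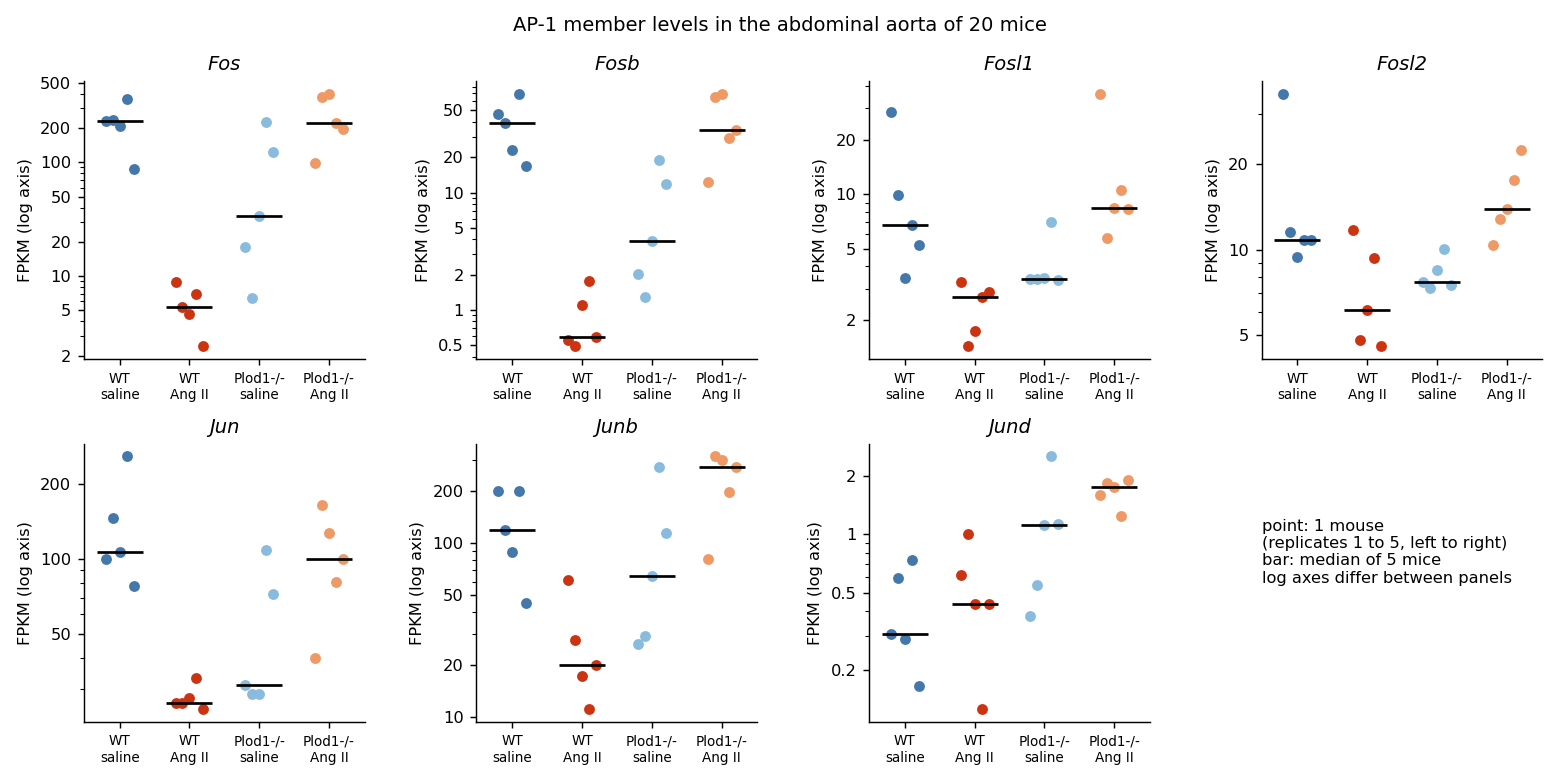
FPKM (log axis) of each AP-1 gene, 1 point per mouse and a bar at the median of 5 mice, by group. *Fos* and *Fosb* in Ang II-treated WT mice lie below all other WT and all Ang II-treated *Plod1*-/- mice, while *Fosl2* spans a narrower range and *Jund* stays at or below 2.52 FPKM.

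*Fosl1*, which encodes Fra-1, had WT values of 28.8, 9.94, 3.43, 6.73 and 5.24 FPKM under saline and 3.28, 1.43, 1.75, 2.69 and 2.89 FPKM under Ang II. The *Plod1*-/- values were 3.39, 3.41, 3.46, 7.02 and 3.37 FPKM under saline and 36.2, 5.74, 8.37, 10.5 and 8.31 FPKM under Ang II. The highest mouse was at 28.8 FPKM with the next at 9.94 in saline-treated WT mice, and at 36.2 FPKM with the next at 10.5 in Ang II-treated *Plod1*-/- mice. In the latter group it was replicate 1, a library with *Xist* RNA. The other saline-treated *Plod1*-/- mice lay within 3.37 to 3.46 FPKM, below replicate 4. Of the 2033 exon bases of *Fosl1*, 1163 (57.2%) are also exon of *Ccdc85b* on the opposite strand, and the library kit does not keep strand, so *Fosl1* is uncertain. *Ccdc85b* was at 54.9 to 79.3 FPKM in Ang II-treated *Plod1*-/- mice and at 70.2 FPKM or more in every other mouse.

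*Fosl2*, which encodes Fra-2, spanned the narrowest range of the Fos genes over the 20 mice. It was at 35.5, 11.5, 9.44, 10.8 and 10.8 FPKM in saline-treated and at 11.8, 4.80, 6.12, 9.32 and 4.55 FPKM in Ang II-treated WT mice. The *Plod1*-/- values were 7.69, 7.32, 8.46, 10.1 and 7.49 FPKM under saline and 10.3, 12.8, 13.8, 17.6 and 22.4 FPKM under Ang II. Here the treatment groups did not overlap within *Plod1*-/- mice but did within WT mice.

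Of the Jun genes, *Jun*, the main partner of Fos proteins, was at 99.7, 147, 107, 258 and 78.0 FPKM in saline-treated WT mice. Under Ang II the WT values lay close together, at 26.5, 26.3, 27.6, 33.4 and 25.0 FPKM. The *Plod1*-/- values were 31.3, 28.6, 28.7, 108 and 72.5 FPKM under saline and 40.0, 165, 128, 80.8 and 99.8 FPKM under Ang II. Saline-treated *Plod1*-/- replicates 1 to 3 were thus within the range of the Ang II-treated WT mice, and replicates 4 and 5 were above it.

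*Junb*, whose product can restrain Jun at some targets, was at 199.7, 118, 88.5, 199 and 45.3 FPKM in saline-treated and at 61.5, 27.7, 17.1, 11.1 and 20.0 FPKM in Ang II-treated WT mice. The values without *Plod1* were 26.1, 29.1, 64.2, 275 and 114 FPKM under saline and 80.5, 315, 302, 197 and 272 FPKM under Ang II. The Ang II-treated genotypes did not overlap. Of its 2301 exon bases, 173 (7.52%) are shared with *Prdx2* on the opposite strand, which was at 26.6 to 61.5 FPKM.

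*Jund*, usually the most steadily expressed Jun gene, was low in these files. Its WT values were 0.304, 0.598, 0.287, 0.736 and 0.164 FPKM under saline and 0.618, 0.9995, 0.437, 0.125 and 0.437 FPKM under Ang II. The *Plod1*-/- values were 0.379, 0.545, 1.12, 2.52 and 1.13 FPKM under saline and 1.59, 1.83, 1.76, 1.25 and 1.91 FPKM under Ang II. The annotation gives *Jund* a single exon of 1668 bases, 877 of which (52.6%) are also exon of *Gm11175* on the opposite strand, so the value is uncertain.

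The order of the median levels differed between the groups. In saline-treated WT mice it was *Fos* (229.9 FPKM), *Junb* (118), *Jun* (107), *Fosb* (39.5), *Fosl2* (10.8), *Fosl1* (6.73) and *Jund* (0.304). In Ang II-treated WT mice it was *Jun* (26.5), *Junb* (20.0), *Fosl2* (6.12), *Fos* (5.29), *Fosl1* (2.69), *Fosb* (0.590) and *Jund* (0.437), and the ranges of all neighbours overlapped. In saline-treated *Plod1*-/- mice *Junb* (64.2) led, followed by *Fos* (33.6), *Jun* (31.3), *Fosl2* (7.69), *Fosb* (3.88), *Fosl1* (3.41) and *Jund* (1.12). In Ang II-treated *Plod1*-/- mice the order was *Junb* (272), *Fos* (220.4), *Jun* (99.8), *Fosb* (34.0), *Fosl2* (13.8), *Fosl1* (8.37) and *Jund* (1.76). Neighbours separated without overlap were *Jun* and *Fosb* in saline-treated WT mice, *Jun* and *Fosl2* in saline-treated *Plod1*-/- mice, and *Fosl1* and *Jund* in all groups but the Ang II-treated WT mice. All other neighbours overlapped.

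The groups were then tested with limma after a log2(FPKM + 1) transformation, which makes the change of low genes look smaller than it was, and a gene was called when its Benjamini-Hochberg adjusted p-value over all genes tested was below 0.05 and its log2 fold change above 1 in size. In WT mice 5 of the 6 members tested were called lower under Ang II, against 2.28% of all 11994 genes, and none was called higher, against 6.38%. *Fos* had a log2 fold change of -5.03 (SE 0.36, adjusted p = 1.73e-04), the smallest p-value of all genes, and *Fosb* one of -4.27 (SE 0.34, adjusted p = 2.57e-04). *Jun* had -2.15 (SE 0.27, adjusted p = 0.00181), *Junb* -2.24 (SE 0.48, adjusted p = 0.00614) and *Fosl1* -1.48 (SE 0.42, adjusted p = 0.0204). *Fosl2*, at -0.89 (SE 0.35, adjusted p = 0.0619), was not called. Saline and Ang II values were separate for *Fos*, *Fosb*, *Fosl1* and *Jun*, as for 17.3% of all genes. *Fosl1* lost its call without Ang II-treated WT replicate 2 and when low genes were also tested (adjusted p = 0.0651), and without replicate 1 of that group *Fosl2* gained one. *Jund* was below the filter, and its difference of 0.09 on the log2 scale gave p = 0.579 in a two-sided exact permutation test. With the mean of the brown adipocyte markers as a covariate, added after the data were seen, only *Fosb* was called (log2 fold change -2.54, adjusted p = 0.0271) and *Fos* had -3.73 (adjusted p = 0.196), in a fit that called 2 of all genes. In the comparison without the covariate, 4 of 5 brown adipocyte markers tested were called higher and 3 of 6 smooth muscle markers lower.

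In *Plod1*-/- mice the members called were higher under Ang II. *Fosb* (2.57, SE 0.65, adjusted p = 0.00888), *Fos* (2.45, SE 0.84, adjusted p = 0.0371) and *Fosl1* (1.28, SE 0.41, adjusted p = 0.0264) were called higher under Ang II, 3 of 7 members against 8.38% of 12333 genes, and no member was called lower, against 5.51%. *Fosl2*, with a log2 fold change of 0.80 (SE 0.18, adjusted p = 0.00523), passed the p-value and not the fold threshold, and it was the only member whose groups did not overlap, as for 29.2% of all genes. *Junb* (1.59, adjusted p = 0.0636), *Jun* (1.00, adjusted p = 0.102) and *Jund* (0.39, adjusted p = 0.177) did not pass. These calls depended on single mice. Without saline-treated *Plod1*-/- replicate 4 the count was 5 members, and without replicate 1, 2 or 3 of that group it was 1, *Fosb*. *Fos* also lost its call without Ang II-treated *Plod1*-/- replicate 2, 3, 4 or 5, and over all alternatives its adjusted p ran from 0.00348 to 0.0925. Without both libraries with *Xist* RNA, *Jun* and *Junb* were called and *Fosl1* was not (log2 fold change 0.82). *Fosl1* was also lost without saline-treated *Plod1*-/- replicate 5 or Ang II-treated *Plod1*-/- replicate 1 alone, under quantile normalization (adjusted p = 0.0542) and when low genes were also tested (adjusted p = 0.0679). *Junb* gained a call with the replicate number as a block (adjusted p = 0.0427), with all 4 groups in a single fit (adjusted p = 0.0357) and with the brown adipocyte covariate (adjusted p = 0.0239). *Fosb* was called in every alternative, with adjusted p from 8.55e-04 to 0.026. In this comparison all 8 macrophage markers, 4 of 4 neutrophil markers tested and 5 of 5 red cell markers were called higher. Of the smooth muscle markers 5 of 6 were called lower. The neutrophil markers *Csf3r* and *Retnlg* passed the filter only in fits that held the Ang II-treated *Plod1*-/- mice, where they were higher. Their calls carry that selection. The part of all these markers in the members' changes was not tested.

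Between the Ang II-treated genotypes 6 of 7 members were called higher in *Plod1*-/- mice, against 7.45% of 12356 genes, and none lower, against 3.67%. The log2 fold changes were 5.21 for *Fos* (SE 0.39, adjusted p = 1.54e-04), 4.31 for *Fosb* (SE 0.41, adjusted p = 3.73e-04) and 3.13 for *Junb* (SE 0.47, adjusted p = 0.00199). Those of *Fosl1*, *Jun* and *Fosl2* were 1.85, 1.71 and 1.01, with adjusted p of 0.00792, 0.00437 and 0.0174. The call of *Fosl2* was lost without Ang II-treated WT replicate 2, 3 or 5 or Ang II-treated *Plod1*-/- replicate 4 or 5, and its lowest log2 fold change without a mouse was 0.87. *Jund* (0.83, SE 0.15, adjusted p = 0.00452) passed the p-value only, and with a pseudocount of 0.1 its log2 fold change was 1.67 (adjusted p = 0.00947) and it was called. With the brown adipocyte covariate 4 members were called, *Fos*, *Fosb*, *Junb* and *Jund*, while *Fosl1* (0.90, adjusted p = 0.426), *Jun* (2.03, adjusted p = 0.0811) and *Fosl2* (0.78, adjusted p = 0.359) were not. *Fos*, *Fosb*, *Fosl1*, *Jun* and *Junb* had groups that did not overlap, as did 15.1% of all genes. *Jund* did not overlap either, but it was below 1 FPKM in every Ang II-treated WT mouse. It passed the filter here only through the Ang II-treated *Plod1*-/- mice. Its separation was thus set by the filter, and its fold change and adjusted p carry the same selection. The median log2 fold change of all genes tested was 0.12 here and -0.04 after quantile normalization. The part of differing tissue make-up in the members' changes was not tested by this.

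Under saline *Fosb* was the only member called between the genotypes, lower in *Plod1*-/- mice (-2.54, SE 0.60, adjusted p = 0.0353), 1 of 6 members tested against 0.408% of 11999 genes, while none was called higher, against 0.358%. This call was lost without saline-treated WT replicate 1, 2 or 4 or saline-treated *Plod1*-/- replicate 1, 2 or 3, and its adjusted p ran from 0.00452 to 0.112 over all alternatives. *Fos* had a log2 fold change of -2.27 (SE 0.82, adjusted p = 0.107) and *Jun* one of -1.43 (SE 0.42, adjusted p = 0.0648). *Fosl1*, *Junb* and *Fosl2* had -0.90, -0.71 and -0.67, with adjusted p of 0.203, 0.493 and 0.173. *Jund* was 0.53 higher on the log2 scale (p = 0.0635, two-sided exact permutation test). No member had groups that did not overlap, against 9.52% of all genes.

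**Figure D2:**
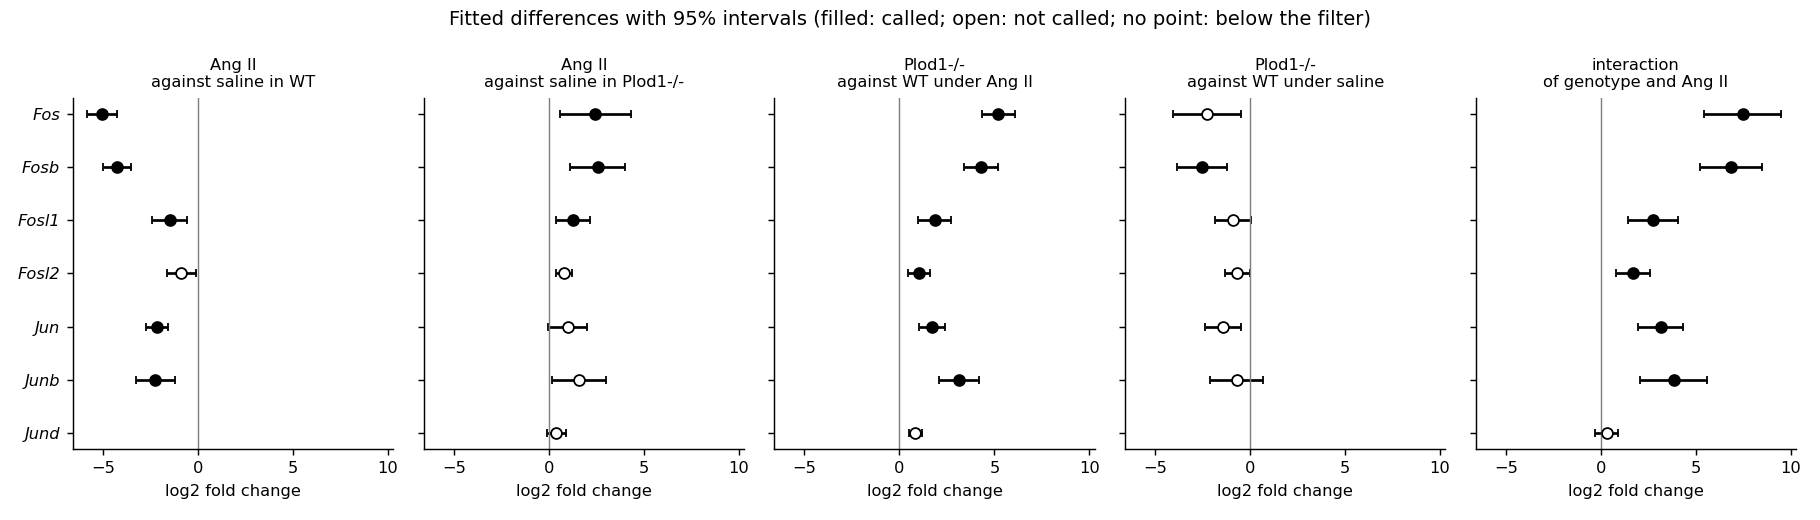
Log2 fold change of each AP-1 gene (horizontal axis, limma on log2(FPKM + 1)) with its 95% interval, in the 4 comparisons and for the difference between the responses to Ang II. Filled points were called; *Fos* and *Fosb* lie farthest from 0 in both comparisons with Ang II-treated WT mice, which share those mice.

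The responses to Ang II of the genotypes differed for 6 of 7 members (interaction on all 20 mice), higher in *Plod1*-/- mice, against 9.69% of 13263 genes. The difference was 7.48 on the log2 scale for *Fos* (SE 0.97, adjusted p = 3.91e-05) and 6.85 for *Fosb* (SE 0.77, adjusted p = 1.83e-05), the first and second of all genes by size. It was 3.84 for *Junb* (adjusted p = 0.00214), 3.15 for *Jun* (adjusted p = 4.64e-04), 2.76 for *Fosl1* (adjusted p = 0.00266) and 1.69 for *Fosl2* (adjusted p = 0.00494). *Jund* had 0.30 (SE 0.29, adjusted p = 0.432). All 6 calls held without each mouse in turn. With the brown adipocyte markers as a covariate *Fos* (5.51), *Fosb* (5.29) and *Jun* (2.31) were called.

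*Fos* and *Fosb* were set against *Fosl1*, *Fosl2* and the Jun genes. Within each mouse the difference of log2(FPKM + 1) between the pair of genes was taken, so that a change shared by both genes on this scale cancels. The Jun genes were put on this side by choice and not as slower genes. Within groups *Jun* and *Junb* moved with *Fos* (r = 0.84 for both). For 10 pairs in 4 comparisons, 40 two-sided exact permutation tests were made, with p-values adjusted over all 40, and 28 passed an adjusted p of 0.05. Every ratio to *Jund* was among these. *Jund* is uncertain and was at 2.52 FPKM or less, so on this scale its ratios follow *Fos* or *Fosb* almost alone. In WT mice all 10 ratios were lower under Ang II and none of the groups overlapped (adjusted p = 0.0127 for each, from the smallest exact p that 5 against 5 mice can give, 0.00794). *Fos* relative to *Fosl2* fell from 3.81 ± 0.98 (SD, n = 5) to -0.33 ± 0.29 (SD, n = 5), so that *Fos* lay near the level of *Fosl2*. *Fos* relative to *Jun* fell from 0.69 ± 0.40 to -2.20 ± 0.52 (SD, n = 5), and *Fosb* relative to *Jun* from -1.83 ± 0.44 to -3.96 ± 0.24 (SD, n = 5).

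With *Plod1* absent 5 of the 10 ratios were higher under Ang II and none lower. *Fosb* relative to *Jun* rose from -2.94 ± 0.58 to -1.36 ± 0.29 (SD, n = 5) and relative to *Junb* from -3.51 ± 0.32 to -2.53 ± 0.35 (SD, n = 5), without overlap (exact permutation, adjusted p = 0.0127 for both). *Fos* relative to *Jun* rose from -0.15 ± 1.25 to 1.30 ± 0.26 (SD, n = 5, exact permutation, adjusted p = 0.0244). The ratios of *Fos* and of *Fosb* to *Jund* also passed (adjusted p = 0.0454 and 0.0353, exact permutation). No ratio to *Fosl1* or *Fosl2* passed in *Plod1*-/- mice, with differences of 1.17 to 1.78 and adjusted p of 0.084 to 0.31 (exact permutation).

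Between the Ang II-treated genotypes all 5 *Fos* ratios and 3 of 5 *Fosb* ratios, counting those to *Jund*, were higher in *Plod1*-/- mice. *Fosb* relative to *Fosl1* (2.46 higher, adjusted p = 0.0595) and to *Junb* (1.18 higher, adjusted p = 0.077) did not pass in the exact permutation test. Under saline 5 ratios were lower in *Plod1*-/- mice, those of *Fos* and *Fosb* to *Junb* and *Jund* and that of *Fosb* to *Jun*, each without overlap (exact permutation, adjusted p = 0.0127). *Fosb* relative to *Junb* had a mean of -1.68 ± 0.29 (SD, n = 5) in WT mice and of -3.51 ± 0.32 (SD, n = 5) without *Plod1*. The *Plod1*-/- mice, including replicates 4 and 5 with their high *Fos*, lay between -3.79 and -3.16, and the WT mice between -2.08 and -1.39. The 4 comparisons share groups, so their ratios are not independent of each other.

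**Figure D3:**
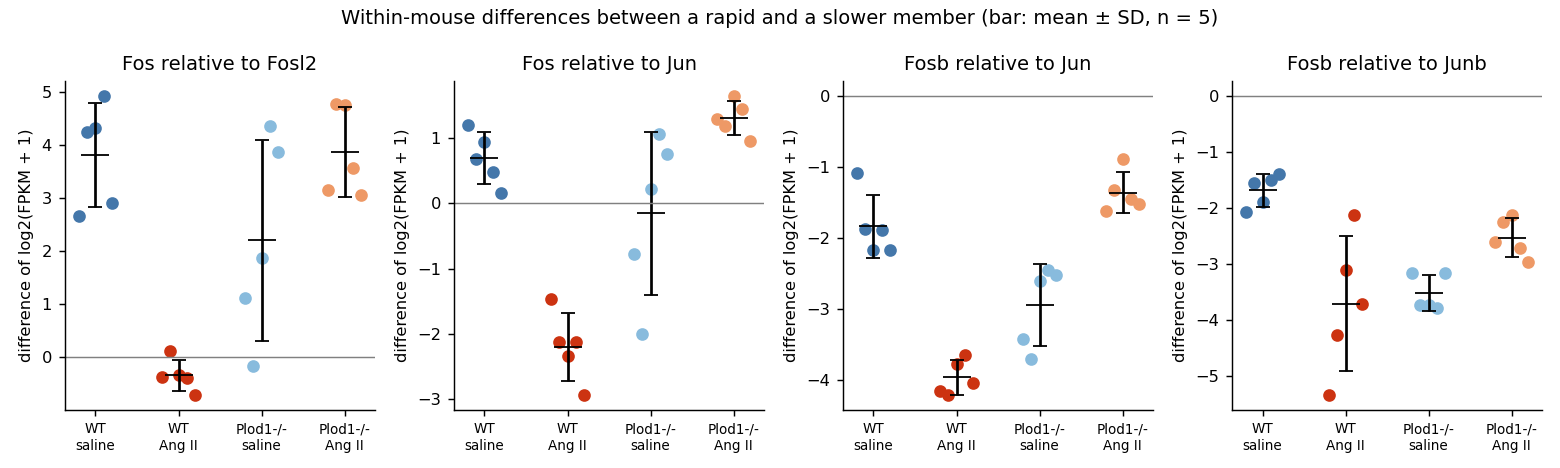
Within-mouse difference of log2(FPKM + 1) between *Fos* or *Fosb* and another member (vertical axis), 1 point per mouse with mean ± SD (n = 5), by group. In Ang II-treated WT mice *Fos* relative to *Fosl2* lies between -0.70 and 0.12, below all other WT mice, and *Fosb* relative to *Junb* in saline-treated *Plod1*-/- mice lies below all saline-treated WT mice.

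The make-up of the Fos side changed with the ratios. *Fos* held 67.5% to 85.2% of the summed FPKM of the 4 Fos genes in saline-treated WT mice, 23.1% to 44.0% in Ang II-treated WT mice and 62.8% to 81.8% in Ang II-treated *Plod1*-/- mice. *Fosl1* and *Fosl2* together held 51.9% to 71.3% in Ang II-treated WT mice and 3.94% to 18.9% in saline-treated WT mice. In saline-treated *Plod1*-/- mice *Fos* held 57.7%, 34.8%, 68.0%, 86.2% and 84.4% in replicates 1 to 5. The summed FPKM of the Fos genes was 0.973 to 1.24 times that of the Jun genes in saline-treated WT mice, 0.218 to 0.464 times in Ang II-treated WT mice and 0.693 to 1.30 times in Ang II-treated *Plod1*-/- mice. Among the Jun genes, *Junb* was 1.90 to 2.73 times *Jun* in Ang II-treated *Plod1*-/- mice and 0.580 to 2.003 times *Jun* in saline-treated WT mice. It was 0.833 to 2.54 times *Jun* in saline-treated *Plod1*-/- and 0.332 to 2.32 times in Ang II-treated WT mice, so all groups overlapped the first.

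**Figure D4:**
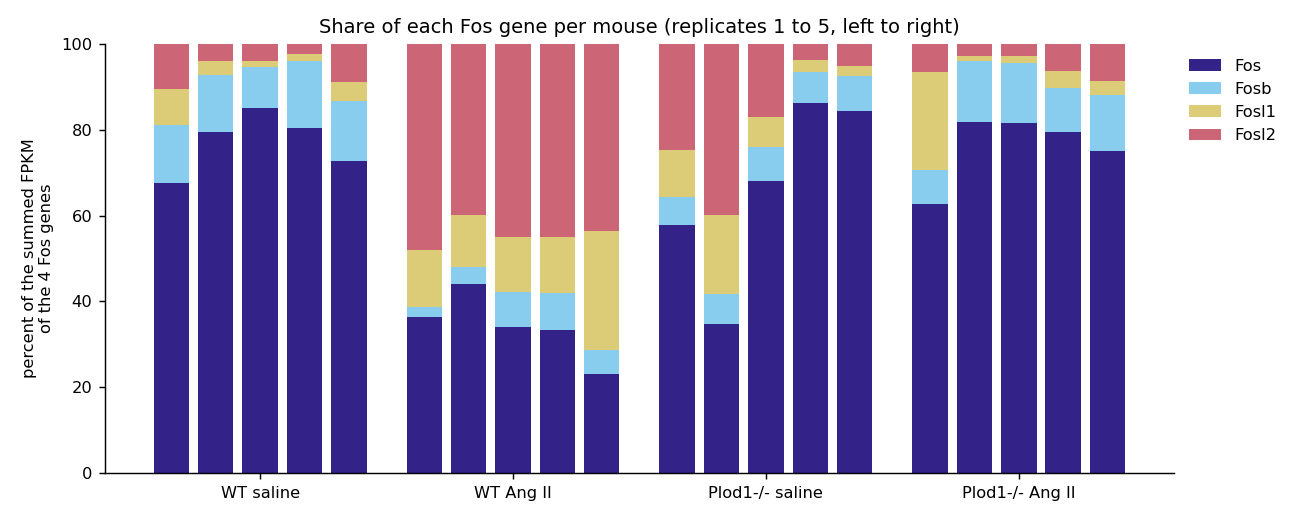
Share of *Fos*, *Fosb*, *Fosl1* and *Fosl2* in the summed FPKM of the 4 Fos genes (vertical axis, percent), 1 bar per mouse. *Fosl2* alone holds 40.0% to 47.9% in Ang II-treated WT mice and at most 10.4% in saline-treated WT mice.

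The members also varied within groups. Over the 20 mice, the deviations of *Fos* from its group means had a Pearson r of 0.91 with those of *Fosb*, 0.84 with those of *Jun*, 0.84 with those of *Junb* and 0.70 with those of *Jund*, but 0.26 with those of *Fosl2* and 0.02 with those of *Fosl1*. *Fosb* and *Jun* had 0.92. *Fosl1* and *Fosl2* had 0.46 with each other, and *Junb* had 0.41 with *Fosl2* and 0.79 with *Jund*. These values are descriptions over mice that share the library of both genes. Among 13262 other genes, those most like *Fos* over all 20 mice were *Fosb* (r = 0.975), *Zfp36*, which encodes a protein that destabilises mRNA (0.958), *Ier2* (0.935), *Jun* (0.918) and *Junb* (0.911). *Fosb* was most like *Fos*, *Zfp36* (0.961), *Jun* (0.949), *Ier2* (0.938) and *Sf3b3* (0.921). These r values include the differences between groups, and within groups *Fosb* and *Sf3b3* had 0.545. *Jun* was most like *Fosb*, *Fos*, *Zfp36* (0.909), *Gm10382* (0.906) and *Ier2* (0.905), and *Junb* was most like *Fos*, *Ier2* (0.893), *Snora31* (0.889), *Zfp36* and *Fosb* (both 0.877).

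The slower Fos genes had other neighbours. Genes most like *Fosl1* included *Fhl3* (r = 0.925), *Polr3d* (0.92), *Pvr* (0.909) and *Lrrc32* (0.905). *Fosl2* was most like *Nup98* (0.946), *Wdr45b* (0.934), *Smad1*, a transducer of bone morphogenetic protein signals (0.923), *Wsb1* (0.919) and *Appbp2* (0.917). *Jund* was most like *Trim28* (0.896), *Foxc2* (0.895), *Loxl1* (0.89), *Tmem158* (0.882) and *Pygo2* (0.878). These r values also include the differences between groups. Within groups the genes named had r of 0.853 to 0.907 with *Fosl1*, 0.84 to 0.92 with *Fosl2* and 0.728 to 0.756 with *Jund*. The single high mice of *Fosl1* and *Fosl2* enter all these values, and the levels of *Fosl1* and *Jund* are uncertain.

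The level of *Fos* also moved against the brown adipocyte markers. Within groups, the deviations of *Fos* had r = -0.69 with those of the mean of these markers over 20 mice, those of *Fosb* -0.68, of *Jun* -0.51, of *Junb* -0.44, of *Fosl1* -0.46 and of *Fosl2* -0.26. In saline-treated *Plod1*-/- mice, the summed markers were at 469, 1261, 189, 48.9 and 23.4 FPKM in replicates 1 to 5, with the highest *Fos* in replicates 4 and 5. Their part in the result was not tested beyond the covariate. With the mean of the 5 general adipocyte markers, *Fos* had r = -0.56 within groups, and this was not tested further. Mitochondrial genes took 14.6% to 29.1% of the FPKM sum in Ang II-treated WT mice and 8.37% to 21.1% in the other groups.

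**Figure D5:**
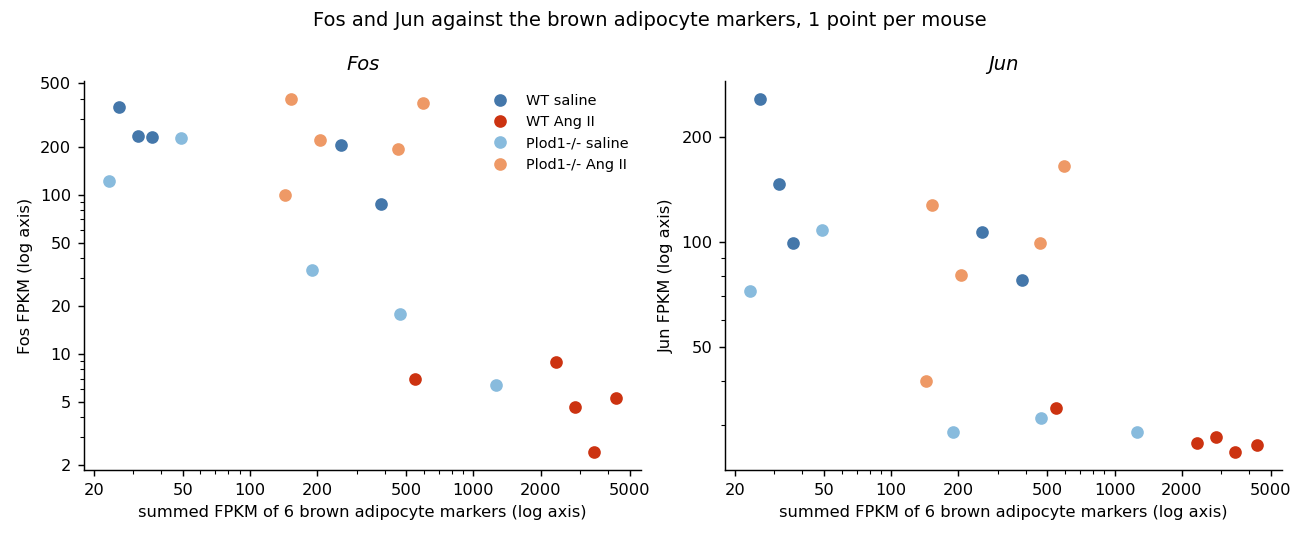
*Fos* and *Jun* (FPKM, log axis) against the summed FPKM of 6 brown adipocyte markers (log axis), 1 point per mouse. Ang II-treated WT mice have marker sums of 549 to 4344 FPKM and low *Fos*. Their lowest sum, in replicate 4, lies below that of saline-treated *Plod1*-/- replicate 2 (1261 FPKM). Ang II-treated *Plod1*-/- mice have *Fos* at 99.5 FPKM or more at sums of 144 to 594 FPKM.

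Other genes of the AP-1 pathway were described by lists. All these lists, those of early genes and AP-1 targets included, were chosen with earlier results of these data known. Their counts set against the shares of all genes are thus descriptions and no independent support. Among the other bZIP partners, which can pair with Fos or Jun proteins, none of 10 tested was called in WT mice, against 6.38% of all genes higher and 2.28% lower. In *Plod1*-/- mice 3 of 12 were higher and 1 lower under Ang II, against 8.38% and 5.51% of all genes. Among them *Batf* (log2 fold change 2.15) and *Maf* (1.36), both known from immune cells, rose and *Mafk* fell by 1.19. Between the Ang II-treated genotypes 4 of 12 were called higher in *Plod1*-/- mice, against 7.45% of all genes, and none lower, against 3.67%. Among these 4 were *Batf* (1.68), *Maf* (1.16) and the stress-induced *Atf3* (1.54), with adjusted p from 0.00788 to 0.0271. *Batf* passed the filter only in fits that held the Ang II-treated *Plod1*-/- mice, where it was higher, so its calls carry that selection. The macrophage markers were higher in the same comparisons, 8 of 8 in each, and their part in these changes was not tested.

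For genes upstream of AP-1, the counts called were too small to be set apart from the shares of all genes. Of 13 transcription factors known to act on early gene promoters, among them *Srf*, *Creb1* and the ternary complex factors, none was called in WT mice or between the genotypes. Of all genes, 6.38% were called higher and 2.28% lower in WT mice. Between the genotypes these shares were 7.45% and 3.67% under Ang II and 0.358% and 0.408% under saline. *Elk3* (1.41, adjusted p = 1.39e-04) was the only one called in *Plod1*-/- mice, where 8.38% of all genes were called higher. *Stat3* was the only one called in the interaction (1.18, adjusted p = 0.00364), where 9.69% of all genes were called higher. Of 13 MAP kinases and their targets tested, *Map2k3*, a kinase upstream of p38, fell by 1.08 in WT mice (adjusted p = 0.00263), and *Rps6ka1*, which encodes the kinase RSK1, was higher by 2.14 under Ang II in *Plod1*-/- mice and by 1.52 between the Ang II-treated genotypes (adjusted p = 0.00211 and 0.0229). Each was 1 of 13 in its comparison, against 2.28%, 8.38% and 7.45% of all genes called in the same direction.

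Other early genes also fell in Ang II-treated WT mice. Of 16 tested, 10 were called lower under Ang II in WT mice, against 2.28% of all genes, and none higher, with a median log2 fold change of -1.74 over the list and -0.14 over all genes. *Egr1* had -3.70, *Nr4a3* -2.98, *Nr4a1* -2.74 and *Ier2* -2.37 (adjusted p from 0.00181 to 0.00663). *Egr1*, an early zinc finger factor, was at 156 FPKM at the median of saline-treated and 13.0 FPKM at that of Ang II-treated WT mice. Among *Plod1*-/- mice 5 of 16 were called higher under Ang II, against 8.38% of all genes: *Myc* (2.86), *Ier5* (1.73), *Ier3* (1.39), *Egr2* (1.32) and *Zfp36* (1.24). Between the Ang II-treated genotypes 11 of 16 were higher in *Plod1*-/- mice, against 7.45% of all genes, and 14 of 16 had a higher response in *Plod1*-/- mice, against 9.69%.

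Genes described as AP-1 targets moved both ways in WT mice. There, where *Fos*, *Fosb*, *Jun* and *Junb* fell, 3 of 15 targets tested were called lower, against 2.28% of all genes, and 2 higher, against 6.38%. *Hbegf* (-2.07) and *Ccl2* (-1.70) were among the lower, and *Spp1* (3.05) and *Vegfa* (2.11) were higher, with adjusted p from 0.00181 to 0.0229. Under Ang II 10 of 17 were higher than under saline in *Plod1*-/- mice, against 8.38% of all genes, and none lower, with a median log2 fold change of 1.99, against 0.05 over all genes. The largest of these were *Hmox1* (6.22), *Spp1* (4.37), the chemokine gene *Ccl2* (4.26), the protease inhibitor gene *Timp1* (3.63) and the protease gene *Mmp9* (3.50). Between the Ang II-treated genotypes 12 of 17 were higher in *Plod1*-/- mice, against 7.45% of all genes, among them the interleukin gene *Il6* (2.91), *Plaur* (2.56) and *Plau* (2.13), which encode parts of the plasminogen activator system. *Il6* and *Il11* passed the filter only in fits that held the Ang II-treated *Plod1*-/- mice, where they were higher. Their calls, which are in both counts out of 17, are thus no independent support. Under saline *Spp1* (1.81) was higher and *Hmox1* lower in *Plod1*-/- mice (adjusted p = 0.0277 and 0.0353). Several of these genes are also expressed by macrophages, whose markers were higher in Ang II-treated *Plod1*-/- mice, and this was not separated here.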

How the data were processed

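The authors sequenced abdominal aortas with an unstranded kit and deposited FPKM per Ensembl gene, made per the study's methods with HISAT2, stringtie, cuffquant and cuffnorm at default settings; the submitters' processing notes name HISAT2 2.1.0, Bowtie2 2.2.3, HTSeq 0.6.0 and mm10. Library depth in reads is unknown, so no counting interval is given. The value of a single fragment in low genes put the libraries' scaling factors between 0.901 and 1.09 of their median. Groups came from the labels, which do not say which mice shared a litter or batch. Symbols came from GENCODE release M21.

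FPKM were transformed to log2(FPKM + 1). Genes that reached 1 FPKM in 5 or more mice of a fit were tested with limma 3.58.1 in R 4.3.3 (eBayes with a variance trend) on the 10 mice of each comparison, or on all 20 for the interaction. edgeR, which the authors used, needs counts and was not run. Members below the filter and ratios were tested with two-sided exact permutation tests in scipy 1.17.1. The fits were tested on simulated data. Sequences are from RefSeq. The members and gene lists were chosen with earlier results of these data known. Besides the members, named genes are list genes called in a comparison, and the 5 genes most correlated with each member. Some genes of the lists are counted and not reported here by name. The check genes are *Plod1* and *Xist*; *Ccdc85b* and *Prdx2* overlap members. Alternatives tried were no filter, a pseudocount of 0.1, replicate number as a block, all groups in a single fit, quantile normalization, mitochondrial genes left out, weights per mouse, no variance trend, the adjusted p-value alone, both libraries with *Xist* RNA left out and each mouse left out.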

Additional observations from a re-analysis of the deposited data

Results flagged for a closer look

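The responses to Ang II differed between the genotypes, by a test of the difference itself, for *Fos* (7.48 on the log2 scale), *Fosb* (6.85), *Fosl1* (2.76), *Fosl2* (1.69), *Jun* (3.15) and *Junb* (3.84). Among 28 sets of 5 mice, 7 members in 4 groups, the gap of a single mouse to its neighbour exceeded 0.71 of the group's range on the log2 scale in 2 sets, where chance gives about 1 in 20. They were *Fosl1* in saline-treated *Plod1*-/- mice, with a top value of 7.02 FPKM in replicate 4, and *Fosl2* in saline-treated WT mice, with a top value of 35.5 FPKM in replicate 1.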

How the results depend on the processing

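The count of members called in WT mice, 5, ran from 4 to 6 without each mouse and was 1 with the brown adipocyte covariate. In *Plod1*-/- mice the count, 3, was 1 with no filter on low values and ran from 1 to 5 without each mouse. Between the Ang II-treated genotypes it was 6, 4 with the covariate, 4 to 7 over all these settings and 5 to 6 without each mouse. Under saline it was 1, became 0 with no filter, with weights per mouse and with the replicate block, 3 with the covariate, and 0 to 1 without each mouse. In the interaction it was 6, and 3 with the covariate. The covariate nearly coincides with treatment in WT mice. Of 40 ratios, 28 passed, 26 to 30 without each mouse, and 0 with the replicate block, whose smallest p over 5 pairs is 0.0625 and cannot pass. Same-numbered mice had correlations from -0.332 to 0.421 between their deviations, so the numbers were not taken to pair the mice. *Jund* in WT mice, at 0.09 with no call, ran from -0.0101, without Ang II-treated replicate 2, to 0.20 without each mouse. Of 711 other values of single members under an alternative, 651 kept their direction and side of the threshold, 46 lost a call and 14 gained one. None of the 711 reversed. *Fosl2* between the Ang II-treated genotypes lost its call with no filter, with quantile normalization, with mitochondrial genes left out, with the replicate block and with the covariate, and its log2 fold change over these and the other settings ran from 0.78 to 1.43.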
